A study of Mus musculus with 9 samples.

Results

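Glycerol kinase and the glycerol-3-phosphate dehydrogenases were examined as 4 genes, Gk, Gk5, Gpd1l and Gpd2, found by symbol among the 55011 genes of the raw count table. All 4 had enough reads to be tested. The genes were selected on their counts in the 3 groups of these same libraries, so their differences between groups are given as descriptions, without p-values. RNA was sequenced from naive CD8 T cells of wild-type mouse spleen that were activated for 6 h on plate-bound antibodies to CD3 and CD28 at 4 µg/mL. The control cells had no compound, and the others were given D-2HG or L-2HG, each at 20 mM, from the start of the stimulation. Each group had 3 libraries, which makes 9. The compounds are mirror images of each other, the D and L forms of 2-hydroxyglutarate, and the study concerned the effect of D-2HG, the form made by mutant isocitrate dehydrogenases in tumours, on T cell metabolism. The labels give neither the age of the mice nor whether the replicates of a group came from separate animals or cultures. The p-values therefore measure only how these libraries vary, which may be technical.

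Glycerol-3-phosphate stands where glycolysis, lipid synthesis and mitochondrial respiration meet. Glycerol kinase makes it from glycerol and ATP, and cytosolic glycerol-3-phosphate dehydrogenases (GPD1 and GPD1-like) make it from dihydroxyacetone phosphate, an intermediate of glycolysis, using NADH. It can be built into phospholipids and triglycerides, or be oxidised back to dihydroxyacetone phosphate by GPD2 on the outer face of the inner mitochondrial membrane, which hands the electrons to ubiquinone. The cytosolic and mitochondrial dehydrogenases together form the glycerol-3-phosphate shuttle, which carries electrons of cytosolic NADH into the respiratory chain. In human T cells, GPD2 has been linked to the reactive oxygen species made after stimulation of the T cell receptor.

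The 9 libraries held from 562627 to 5731885 counts, and the lowest depth was that of L-2HG replicate 2. Reads of satellite repeats, counted under the predicted genes Gm10800 and Gm10801, took 0.910 to 5.35% of counts in control, 3.79 to 17.0% with D-2HG and 6.71 to 24.4% with L-2HG, with the highest share of each group in control replicate 2, D-2HG replicate 3 and L-2HG replicate 2. Transcripts encoded by mitochondria took 2.23 to 3.06%, 0.992 to 1.87% and 1.19 to 1.83%. Of the CD8 T cell markers 8 of 8 were measured, with a summed level of 3763 to 6117 CPM in control, 3359 to 3846 CPM with D-2HG and 3242 to 4644 CPM with L-2HG. Under D-2HG, Cd8b1, Cd3e, Cd3g and Trac fell (log2 fold change -0.89, -0.89, -0.73 and -0.63) and Thy1 rose (0.87), and under L-2HG Trac fell (-0.85) and Thy1 rose (1.57), with edgeR adjusted p of at most 0.0476. CPM is a read count scaled to library size by TMM, which equalises the bulk of genes between libraries. The 7 B cell markers summed to 180 to 325, 139 to 144 and 141 to 200.3 CPM. Of the 3 tested, Cd79b and Ighd were not called, and Ighm fell with both compounds (edgeR adjusted p = 0.0114 and 0.0490). Of the markers of other cells, the 5 dendritic cell markers summed to 15.0 to 23.2, 23.1 to 39.3 and 23.7 to 34.3 CPM, and 2 of them were tested. Zbtb46 rose with L-2HG (log2 fold change 1.10, edgeR adjusted p = 0.0382), while Xcr1 was at -0.21 (edgeR adjusted p = 0.691). The markers of macrophages and monocytes, NK cells, neutrophils and red cells summed to under 10 CPM in each library, and the CD4 T cell markers to between 13.8 and 24.7 CPM. In such bulk samples, fewer cells of a type and less RNA per cell cannot be told apart, and the part that satellite reads, mitochondrial transcripts or other cells had in the results was not tested.

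Per length of exon, Gpd2 had the highest level of the 4 genes in each group. In control it stood at 18.5 ± 2.31 CPM per kb (SD, n = 3), Gpd1l at 3.09 ± 0.255, Gk at 1.42 ± 0.534 and Gk5 at 0.246 ± 0.139, and the ranges of neighbours in this order did not overlap. With D-2HG, Gpd2 stood at 13.6 ± 1.19 CPM per kb, Gk at 7.20 ± 1.46, Gpd1l at 6.32 ± 1.31 and Gk5 at 0.470 ± 0.164. The ranges of Gk and Gpd1l overlapped there (6.18 to 8.86 and 4.89 to 7.45 CPM per kb), so Gk was no longer separated from Gpd1l. With L-2HG, Gpd2 stood at 13.2 ± 2.31, Gpd1l at 6.71 ± 2.10, Gk at 4.15 ± 1.40 and Gk5 at 0.733 ± 0.0390 CPM per kb, again with overlapping ranges of Gpd1l and Gk (4.78 to 8.94 and 2.83 to 5.61). Gpd1, the classical cytosolic dehydrogenase of muscle, liver and fat, had 2, 13 and 1 reads summed over the control, D-2HG and L-2HG libraries and was below the count filter. Gk2, a glycerol kinase gene of testis, had no read in any library. Gpd1l was therefore the cytosolic dehydrogenase gene with measurable reads in these cells.

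**Figure D1:**
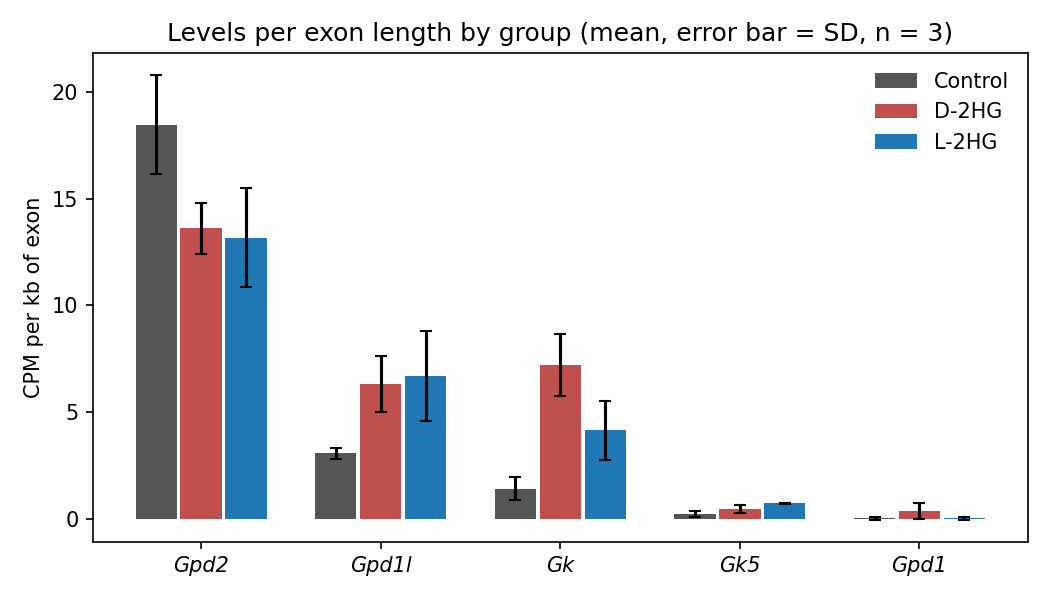
Mean level per kb of exon (y axis, CPM per kb) of Gpd2, Gpd1l, Gk, Gk5 and Gpd1 in control, D-2HG and L-2HG libraries, with bars for the SD over 3 libraries. Gpd2 stands highest in each group, while Gk goes from 1.42 in control to 7.20 with D-2HG and 4.15 with L-2HG.

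Gk encodes glycerol kinase (identifier ENSMUSG00000025059, mm10 chromosome X, 85701937 to 85776819, minus strand). It had 42, 32 and 41 reads in control replicates 1, 2 and 3, or 9.95, 15.5 and 7.42 CPM. With D-2HG it had 139, 222 and 152 reads, or 47.8, 50.7 and 68.6 CPM. With L-2HG it had 85, 22 and 46 reads, or 31.1, 43.4 and 21.9 CPM. The 3 groups did not overlap: each D-2HG library was above each L-2HG library, and each L-2HG library was above each control. Among the controls the highest value was that of replicate 2. The group means were 10.96 ± 4.14, 55.7 ± 11.3 and 32.1 ± 10.8 CPM (SD, n = 3), and the log2 fold change was 2.41 ± 0.29 (SE) with D-2HG and 1.53 ± 0.32 with L-2HG. These are 5.31-fold and 2.88-fold higher levels than in control. Without the library of highest satellite share in each group, the values were 2.49 and 1.59. Reads in olfactory and vomeronasal receptor genes, which are silent in T cells, gave an estimate of stray reads per exon base. That estimate was lowest in L-2HG replicate 2 and highest in L-2HG replicate 3 (0.132 and 1.16 reads per kb of exon). In the latter it came to 9.02 reads of Gk. After subtraction the log2 fold changes of Gk were 2.52 and 1.58. Gk shares 84 of its 7743 exon bases with the antisense gene Gm14764, and the labels' protocols name no step that keeps the strand, so reads there cannot be told apart.

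**Figure D2:**
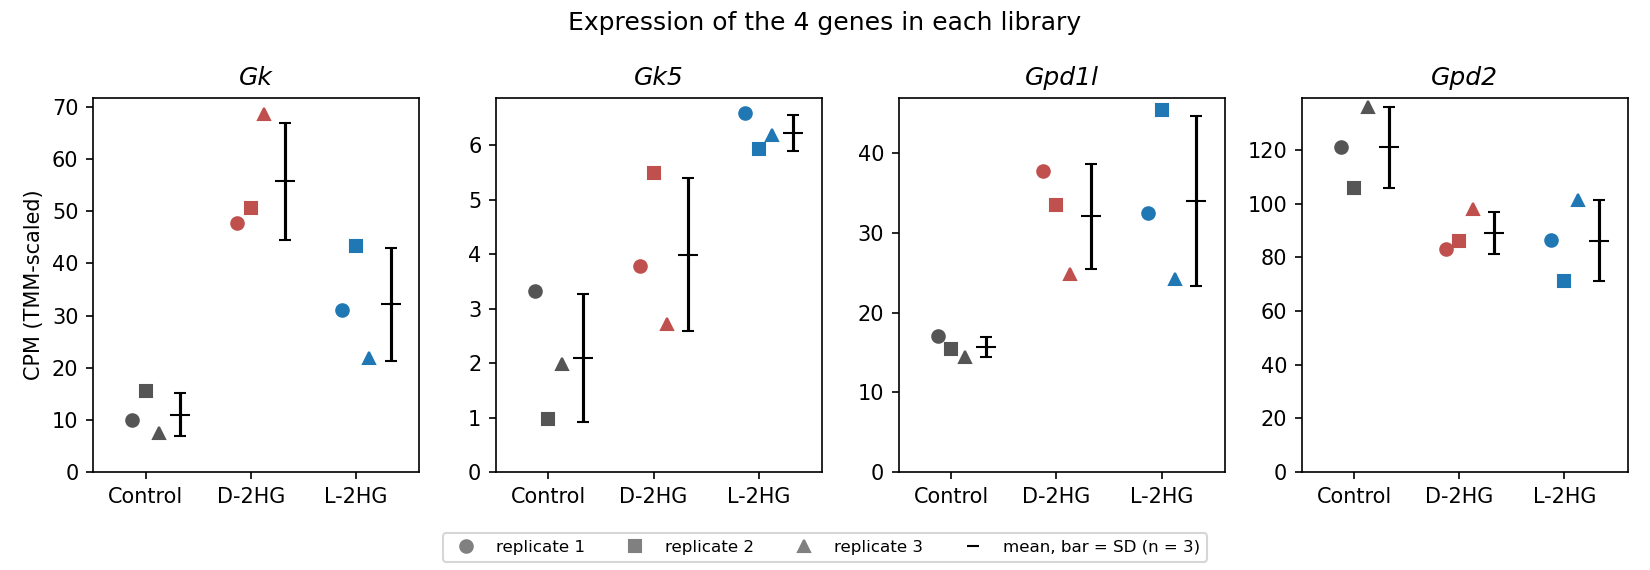
TMM-scaled CPM (y axis) of Gk, Gk5, Gpd1l and Gpd2 in each of the 9 libraries, by group, with a symbol for each replicate and the mean with its SD beside the points. Gk lies at 7.42 to 15.5 CPM in control, 21.9 to 43.4 with L-2HG and 47.8 to 68.6 with D-2HG, and Gpd2 lies lower with either compound than in control.

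Gk5, a more distant member of the glycerol kinase family (identifier ENSMUSG00000041440, chromosome 9, 96119362 to 96184608, plus strand), was close to the limit of what these libraries can measure. It had 14, 2 and 11 reads in the control libraries, or 3.32, 0.969 and 1.99 CPM. The D-2HG libraries had 11, 24 and 6 reads, or 3.78, 5.48 and 2.71 CPM. The L-2HG libraries had 18, 3 and 13 reads, or 6.58, 5.92 and 6.18 CPM. The L-2HG libraries lay above those of the other groups, and the D-2HG range overlapped that of control. The log2 fold change was 0.88 ± 0.52 (SE) with D-2HG and 1.49 ± 0.54 with L-2HG. The stray reads estimated from receptor genes came to 24.3% of the Gk5 reads in control, and to 32.2 and 46.3% of them under D-2HG and L-2HG. After they were subtracted, Gk5 did not pass the count filter, and no change was fitted.

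Gpd1l encodes the cytosolic GPD1-like dehydrogenase (identifier ENSMUSG00000050627, chromosome 9, 114899341 to 114933987, minus strand), whose human counterpart is mutated in some families with cardiac arrhythmia. It had 72, 32 and 80 reads in control, or 17.1, 15.5 and 14.5 CPM. With D-2HG it had 110, 147 and 55 reads, or 37.8, 33.6 and 24.8 CPM. With L-2HG it had 89, 23 and 51 reads, or 32.5, 45.4 and 24.3 CPM. Each library with a compound was above each control, and the ranges with D-2HG and L-2HG overlapped. The means were 15.7 ± 1.29, 32.1 ± 6.63 and 34.1 ± 10.7 CPM (SD, n = 3), with log2 fold changes of 1.04 ± 0.26 (SE) with D-2HG and 1.03 ± 0.27 with L-2HG. Without the library of highest satellite share in each group they were 1.16 and 0.82, and after subtraction of stray reads 1.10 and 1.09.

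Gpd2 encodes the mitochondrial dehydrogenase of the shuttle (identifier ENSMUSG00000026827, chromosome 2, 57237635 to 57370719, plus strand). It had 512, 218 and 751 reads in control, or 121, 105.6 and 136 CPM. With D-2HG it had 242, 377 and 217 reads, or 83.3, 86.1 and 98.0 CPM. With L-2HG it had 236, 36 and 213 reads, or 86.3, 71.1 and 101 CPM. Each library with a compound was below each control, and control replicate 2 was the lowest of the controls. The means were 121 ± 15.1, 89.1 ± 7.81 and 86.2 ± 15.1 CPM (SD, n = 3), with log2 fold changes of -0.45 ± 0.20 (SE) with D-2HG and -0.47 ± 0.20 with L-2HG, neither past the threshold used for all genes. Without control replicate 2 they were -0.55 and -0.58, and both passed it. Without the library of highest satellite share in each group they were -0.62 and -0.50, and both passed as well. Gpd2 shares 487 of its 6549 exon bases with A930012O16Rik on the opposite strand, where reads cannot be told apart.

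A gene was called at a Benjamini-Hochberg adjusted p under 0.05 in edgeR's quasi-likelihood test over all 10235 genes tested. With D-2HG, 2 of the 4 genes were called, Gk and Gpd1l, both higher, where 22.3% of all tested genes were called and 11.8% were called higher. The CPM ranges of 3 of the 4 did not overlap with control, as in 40.0% of all tested genes. With L-2HG the same 2 genes were called, both higher, where 17.7% of all tested genes were called and 9.41% higher, and the ranges of all 4 did not overlap with control, as in 31.2% of all tested genes. These contrasts were known when the genes were chosen, so nothing is read from the counts. The pair of comparisons also shares its control libraries. Gk was called with D-2HG when any of the 9 libraries was left out (log2 fold change 2.15 to 2.66). With L-2HG it was no longer called without control replicate 3, where its log2 fold change was 1.26. Gpd1l was no longer called with D-2HG without control replicate 3 (0.97) or D-2HG replicate 1 (0.90). With L-2HG it was no longer called without control replicates 1 (1.08) or 3 (0.95) or L-2HG replicates 1 (1.00) or 2 (0.85). With no filter on low counts it was called with neither compound (0.91 and 0.77).

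**Figure D3:**
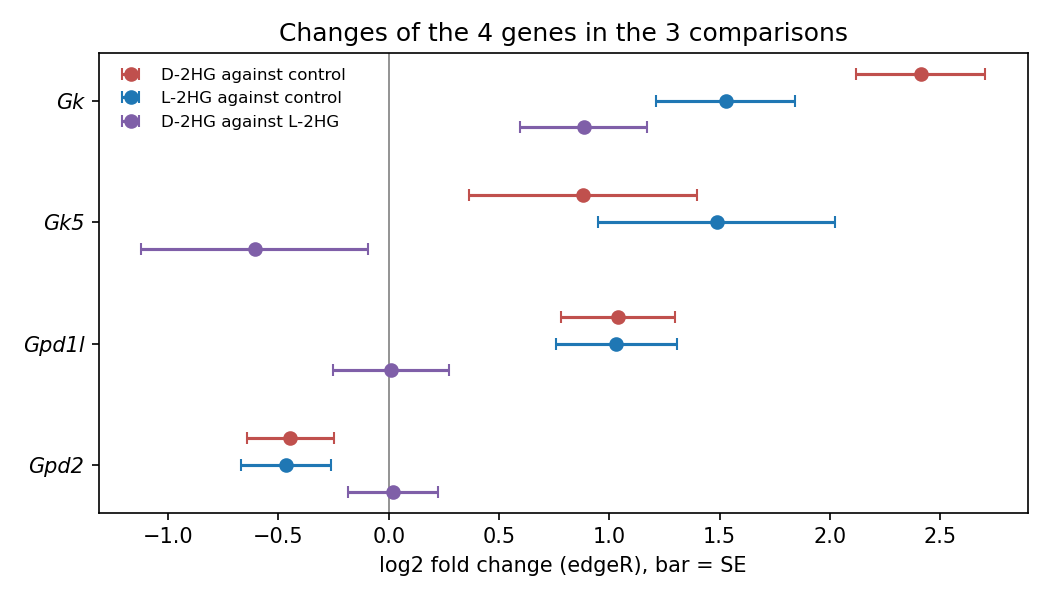
Log2 fold changes (x axis) of the 4 genes for each compound against control and for the compounds against each other, with bars for the SE from the edgeR fit over 9 libraries. Gk stands at 2.41 and 1.53 against control, Gpd1l at 1.04 and 1.03, and Gpd2 at -0.45 and -0.47.

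The mirror-image compounds were used at the same dose and time, and D-2HG was set against L-2HG directly for each of the 4 genes. Gk was 1.84-fold higher with D-2HG than with L-2HG, a log2 difference of 0.88 ± 0.29 (SE; 95% interval 0.28 to 1.48, for this gene alone). The D-2HG and L-2HG ranges did not overlap for Gk, higher with D-2HG, and for Gk5, higher with L-2HG, as in 15.9% of all tested genes. For Gpd1l the log2 difference was 0.01 (-0.54 to 0.56), for Gpd2 0.02 (-0.41 to 0.45) and for Gk5 -0.61 (-1.68 to 0.46). These intervals include differences in either direction, so they do not show that the forms act alike on these genes. None of the 4 genes was called in this comparison by edgeR, nor any of the 3 for which DESeq2 gave an adjusted p (Gk5 had none), where edgeR called 0.303% of all tested genes (0.0489% higher and 0.254% lower with D-2HG). At an unadjusted p under 0.05 edgeR counted 1, Gk, and limma-voom called 1 after adjustment, also Gk. Without the library of highest satellite share in each group, edgeR called Gk as well, with a log2 difference of 0.91. These levels were known when the genes were chosen, so the intervals describe precision and nothing is read from the calls.

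Ratios of genes within a library need no scaling between libraries. The reads per exon base of Gk were 0.0694, 0.124 and 0.0462 of those of Gpd2 in control replicates 1, 2 and 3. The ratio was 0.486, 0.498 and 0.592 in the D-2HG libraries. In the L-2HG libraries it was 0.305, 0.517 and 0.183. Each library with a compound was above each control, and the D-2HG and L-2HG ranges overlapped, since L-2HG replicate 2 reached the level of the D-2HG libraries. The ratio of the mitochondrial to the cytosolic dehydrogenase, Gpd2 over Gpd1l, was 5.51, 5.28 and 7.28 in the control libraries. Under D-2HG it was 1.71, 1.99 and 3.06, and under L-2HG 2.06, 1.21 and 3.24. Its mean went from 6.02 ± 1.09 in control to 2.25 ± 0.714 and 2.17 ± 1.02 with the compounds (SD, n = 3), and control did not overlap either group. The ratio of Gk to Gpd1l was 0.336 to 0.656 in control, 0.829 to 1.81 with D-2HG and 0.591 to 0.627 with L-2HG. With D-2HG it lay above both other groups. The L-2HG libraries lay within the range of control, below control replicate 2 (0.656) and above control replicates 1 and 3 (0.382 and 0.336). Gpd2 made up 75.7 to 83.7% of the summed CPM per kb of the 4 genes in control, 47.5 to 51.5% with D-2HG and 41.6 to 65.0% with L-2HG.

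**Figure D4:**
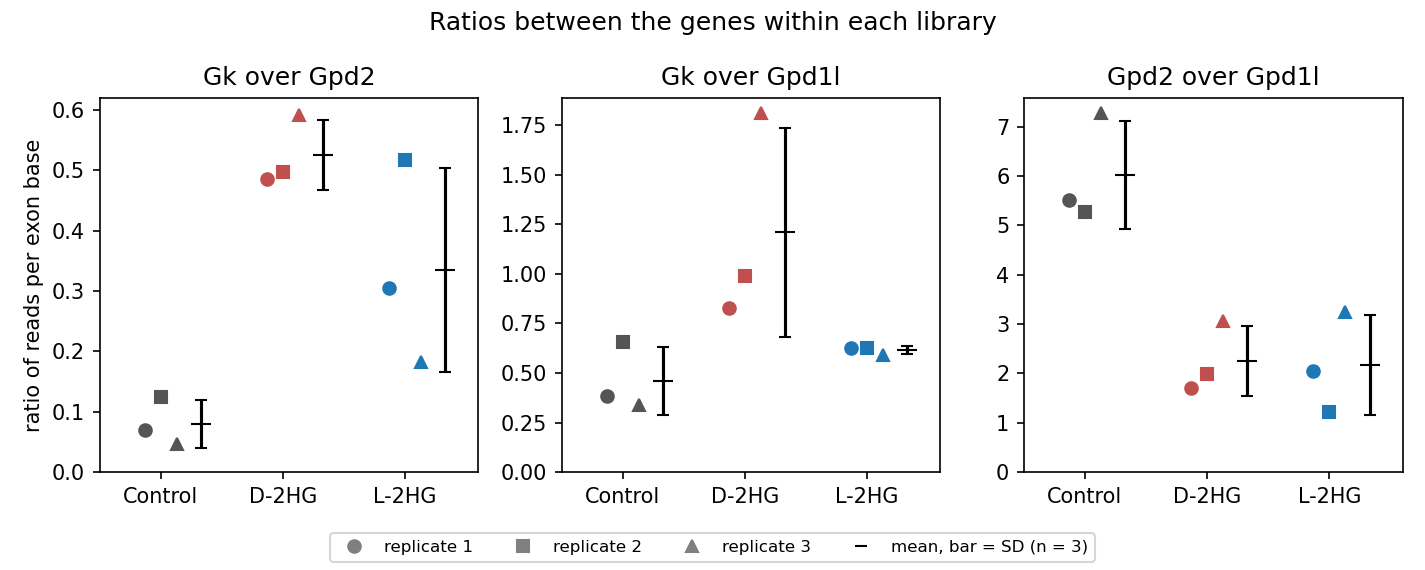
Ratios of reads per exon base (y axis) within each library for Gk over Gpd2, Gk over Gpd1l and Gpd2 over Gpd1l, by group, with a symbol for each replicate and the mean with its SD. Gpd2 over Gpd1l is 5.28 to 7.28 in control and at most 3.24 with either compound.

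The promoters of Gk, Gpd1l and Gk5, the genes with higher means with both compounds than in control, are shown to set their letters side by side. They are from RefSeq on build GRCm38.p6 and run from 250 bases before the start of the transcript to 50 after it. All 4 genes had such a window, and Gpd2 had 2. Both strands were searched for CACGTG, the E-box bound by MYC and by the carbohydrate response factor ChREBP, and for TGACNNNGC, the core of the antioxidant response element bound by NRF2. The search also covered the general promoter elements CCAAT and, as the GC box, GGGCGG, and the AP-1 site TGANTCA. The motifs were chosen with the values of the genes known. Capitals mark matches to CACGTG and TGACNNNGC on either strand.
Gk, chrX:85776770-85777069, minus strand: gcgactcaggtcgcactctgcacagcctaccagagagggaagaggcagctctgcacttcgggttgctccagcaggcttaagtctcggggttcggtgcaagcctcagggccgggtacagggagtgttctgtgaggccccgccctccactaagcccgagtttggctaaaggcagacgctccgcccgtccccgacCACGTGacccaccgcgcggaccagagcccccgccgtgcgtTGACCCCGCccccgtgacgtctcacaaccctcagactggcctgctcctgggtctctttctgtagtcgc
Gpd1l, chr9:114933938-114934237, minus strand: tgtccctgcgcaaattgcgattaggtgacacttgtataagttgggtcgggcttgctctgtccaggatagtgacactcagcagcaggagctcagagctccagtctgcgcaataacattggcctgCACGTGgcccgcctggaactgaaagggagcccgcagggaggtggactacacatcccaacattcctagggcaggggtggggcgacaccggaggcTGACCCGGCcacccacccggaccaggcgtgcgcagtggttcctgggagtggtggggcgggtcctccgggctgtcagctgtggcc
Gk5, chr9:96119179-96119478, plus strand: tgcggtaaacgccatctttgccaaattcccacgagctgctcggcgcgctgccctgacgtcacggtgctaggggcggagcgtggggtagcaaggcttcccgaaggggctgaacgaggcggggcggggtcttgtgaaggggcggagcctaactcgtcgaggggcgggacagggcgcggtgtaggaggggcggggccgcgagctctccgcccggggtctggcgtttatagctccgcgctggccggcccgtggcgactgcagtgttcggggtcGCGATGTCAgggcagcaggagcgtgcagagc
CACGTG occurred once in the Gk window and once in that of Gpd1l, and in 7.15% of 32841 promoter windows of the same length. The Gk5 window did not hold it. TGACNNNGC occurred once in each of the 3 windows, overlapping a GC box in Gk, and in 12.4% of all windows. In Gk5 it lay on the other strand. Neither Gpd2 window held CACGTG or TGACNNNGC. GGGCGG occurred 3 times for Gk, 6 times for Gk5, once for Gpd1l, and 0 and 2 times in the Gpd2 windows, against 35.7% of all windows with a match. CCAAT occurred in the Gpd1l window alone among these genes (37.4% of all windows), and TGANTCA in none of them (7.81% of all windows). A match is a run of letters and does not show that a factor binds there.

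Genes of the surrounding pathways were taken from 6 lists drawn up by role. Of their 78 genes, 59 were tested. With D-2HG 5 rose and 9 fell, and with L-2HG 1 rose and 9 fell, where the shares of all tested genes that rose and fell were 11.8 and 10.5% for the first compound, and 9.41 and 8.30% for the second. These counts depended on single libraries. With 1 library left out, the count with D-2HG went down to 3 without control replicate 1 or D-2HG replicate 1 and up to 30 without control replicate 2. With L-2HG it went down to 0 without control replicate 3 or L-2HG replicate 1 and up to 22 without control replicate 2. Without the library of highest satellite share in each group, 27 were called with either compound. D-2HG against L-2HG gave no call by edgeR, DESeq2 or limma-voom, and 2 at an unadjusted p under 0.05 in edgeR.

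Enzymes and channels that handle glycerol itself had few reads. Of 7 genes 2 were tested, and edgeR called neither with either compound, with 0 at an unadjusted p under 0.05. Pgp, whose product removes the phosphate of glycerol-3-phosphate, was at 15.0 ± 3.18, 17.4 ± 3.38 and 20.1 ± 4.05 CPM in the 3 groups (SD, n = 3; edgeR adjusted p = 0.650 and 0.407). The channel gene Aqp9, which serves glycerol uptake in memory CD8 T cells, had 5, 5 and 8 reads summed over the control, D-2HG and L-2HG libraries. The channel genes Aqp3 and Aqp7 had 47, 15 and 14 reads and 3, 1 and 2 reads. These 3 genes were below the count filter, and no difference between groups could be measured at this depth.

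Of 28 tested genes that build glycerolipids from glycerol-3-phosphate, 4 rose and 2 fell with D-2HG, and 1 rose and 3 fell with L-2HG. The share called was no higher than over all tested genes, where it was 22.3% with D-2HG and 17.7% with L-2HG. The median log2 fold changes of the list were -0.10 and -0.03 against 0.04 and 0.05 over all genes. Gpam, the mitochondrial enzyme of the first step, was at 7.52 ± 3.98, 7.01 ± 2.93 and 14.8 ± 9.70 CPM (edgeR adjusted p = 0.944 and 0.227). Gpat4, another gene of that step, had higher levels, at 186 ± 39.8, 264 ± 12.4 and 202 ± 12.7 CPM. Its D-2HG range lay above that of control (251 to 276 and 142 to 219 CPM), but edgeR called it with neither compound. Dgat1, which makes triglycerides, rose with D-2HG from 12.8 ± 3.20 to 25.5 ± 3.60 CPM (edgeR adjusted p = 0.0220). Lclat1, which remodels cardiolipin, and Selenoi, of phosphatidylethanolamine synthesis, rose with D-2HG by 1.09 and 0.70 on the log2 scale (edgeR adjusted p = 0.0261 and 0.0282). Cds2, which makes CDP-diacylglycerol, rose with L-2HG from 49.2 ± 4.38 to 83.6 ± 6.23 CPM (edgeR adjusted p = 0.0222). Agpat5, an acyltransferase of phosphatidic acid synthesis, fell with L-2HG from 255 ± 56.2 to 154 ± 5.08 CPM (edgeR adjusted p = 0.0221). With L-2HG, Dgat1, Lclat1 and Selenoi had log2 fold changes of 0.42, 0.53 and 0.28, and none was called by edgeR. With D-2HG, Cds2 and Agpat5 were at 0.42 and -0.52, neither called by edgeR over all 9 libraries. Agpat5 was called there in 6 of 19 other settings. Between the compounds, none of these genes was called in any setting. The call of Dgat1 with D-2HG was lost when control replicate 1, D-2HG replicate 1 or D-2HG replicate 3 was left out (edgeR adjusted p up to 0.119). The calls of Lclat1 and Selenoi were lost without control replicates 1 or 3 or any D-2HG replicate (up to 0.142 and 0.158). Those of Agpat5 and Cds2 were lost without control replicates 1 or 3 or L-2HG replicate 1 (up to 0.0981 and 0.128), and that of Cds2 also without L-2HG replicate 2 (0.0561).

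Of 10 tested genes of lipases and phosphodiesterases that release glycerol or glycerol-3-phosphate, only Gpcpd1 was called with D-2HG, and it rose. With L-2HG edgeR called 0 of them, with 2 at an unadjusted p under 0.05, and limma-voom called Gpcpd1. Over all tested genes, edgeR called 22.3% with D-2HG and 17.7% with L-2HG. The median log2 fold changes of the list were -0.07 and -0.14, against 0.04 and 0.05 over all genes. Gpcpd1, whose product cleaves glycerophosphocholine to glycerol-3-phosphate and choline, was at 21.04 ± 1.80 CPM in control, at 38.0 ± 5.94 under D-2HG and at 27.9 ± 2.16 under L-2HG (edgeR adjusted p = 0.0143 and 0.190). Leaving out control replicate 1 or 3, or D-2HG replicate 1 or 2, ended its call under D-2HG (up to 0.0774). The compounds compared directly gave a log2 difference of 0.43 ± 0.24 (SE), which did not pass (edgeR adjusted p = 0.772).

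At the node of glycolysis that supplies dihydroxyacetone phosphate, 3 genes were tested. With each compound edgeR called 1 of them lower, where 10.5% of all tested genes fell with D-2HG and 8.30% with L-2HG. Gapdh was not called with either compound, at 686 ± 131, 615 ± 128 and 586 ± 118 CPM in the 3 groups (SD, n = 3). Its log2 fold changes were -0.16 and -0.22. Tpi1, whose product interconverts dihydroxyacetone phosphate and glyceraldehyde-3-phosphate, fell with D-2HG in each setting tried (log2 fold change -1.27 ± 0.24 SE, -1.50 to -1.07 over 19 settings, edgeR adjusted p = 0.00312). With L-2HG it was at -0.65 ± 0.24 (edgeR adjusted p = 0.0626). It was called there in 7 of 19 other settings, among them without control replicate 2 or L-2HG replicate 3. Aldoa, whose product splits fructose-1,6-bisphosphate, fell with L-2HG from 2361 ± 571 to 1385 ± 333 CPM (edgeR adjusted p = 0.0302), a call lost without control replicates 1 or 3 or L-2HG replicates 1 or 2 (up to 0.118). With D-2HG it was at -0.53 (edgeR adjusted p = 0.0905), and it was called in 4 of 19 other settings, among them without control replicate 2. For D-2HG against L-2HG the log2 differences were -0.62 for Tpi1 and 0.24 for Aldoa, neither called by edgeR over all 9 libraries. Tpi1 was called there in 1 of 19 other settings and Aldoa in 0.

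The malate-aspartate shuttle carries electrons of cytosolic NADH into mitochondria by another route. All 7 of its genes were tested, with median log2 fold changes of -0.50 with D-2HG and -0.46 with L-2HG. Over all genes the medians were 0.04 and 0.05. With D-2HG edgeR called 2 of the 7 lower, Mdh1 and Mdh2, and with L-2HG 1, Mdh2. Over all tested genes, 10.5% fell with D-2HG and 8.30% with L-2HG. The other genes of the list were not called by edgeR, and 1 of the 7 had a positive log2 fold change with L-2HG (0.14). Mdh2, the mitochondrial malate dehydrogenase, fell from 717 ± 211 CPM to 421 ± 50.5 with D-2HG and 397 ± 72.0 with L-2HG (edgeR adjusted p = 0.0227 and 0.0212). Mdh1, its cytosolic counterpart, fell with D-2HG from 219 ± 64.0 to 120 ± 21.3 CPM (edgeR adjusted p = 0.0196). With L-2HG, Mdh1 was at 131 ± 39.5 CPM (log2 fold change -0.71). It was not called there by edgeR over all 9 libraries, but was called in 8 of 19 other settings. The compounds compared directly gave a log2 difference of -0.16 for Mdh1, which was not called in any setting. Under D-2HG, leaving out control replicate 1 or 3, or D-2HG replicate 1 or 3, ended the calls of both genes, and leaving out D-2HG replicate 2 ended that of Mdh2 (up to 0.122). The call of Mdh2 with L-2HG was lost without control replicates 1 or 3 or L-2HG replicates 1 or 2 (up to 0.0979).

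Among other genes whose products pass electrons to ubiquinone, as GPD2 does, or to a carrier before it, 4 of 9 tested fell with D-2HG. With L-2HG 4 fell as well, and none rose in edgeR with either compound. Over all tested genes, 10.5% fell with D-2HG and 8.30% with L-2HG. The median log2 fold changes of the list were -0.57 and -0.66, against 0.04 and 0.05 over all genes. Sdhc, a membrane subunit of succinate dehydrogenase, fell from 62.3 ± 20.6 CPM to 24.9 ± 3.95 with D-2HG and 25.2 ± 10.3 with L-2HG (edgeR adjusted p = 0.00494 and 0.0152). Prodh, the proline dehydrogenase gene, fell from 13.8 ± 6.51 CPM to 4.59 ± 0.851 under D-2HG and 3.93 ± 0.110 under L-2HG (edgeR adjusted p = 0.0137 and 0.0176). Its control values were 9.95, 21.3 and 10.1 CPM, the highest being in replicate 2. Stray reads, as estimated from receptor genes, came to 4.25% of the Prodh reads in control, 26.9% under D-2HG and 68.8% under L-2HG, where it had 11, 2 and 8 reads. Its log2 fold change ranged from -1.88 to -1.10 for D-2HG and from -2.997 to -1.32 for L-2HG over 18 settings. Sdhb, the iron-sulfur subunit, fell from 415 ± 108 CPM to 225 ± 22.5 under D-2HG and 236 ± 60.9 under L-2HG (edgeR adjusted p = 0.0128 and 0.0255). Etfa and Etfb encode the subunits of the flavoprotein that carries electrons from fatty acid oxidation. Etfb fell with D-2HG (log2 fold change -0.78, edgeR adjusted p = 0.0439) and was at -0.63 with L-2HG (edgeR adjusted p = 0.125). Etfa fell with L-2HG (-0.67, edgeR adjusted p = 0.0397) and was at -0.57 with D-2HG (edgeR adjusted p = 0.0527). The compounds compared directly gave log2 differences of -0.15 for Etfb and 0.10 for Etfa, neither past the threshold (edgeR adjusted p = 0.966 for both). Sdhc with D-2HG passed with each library left out, and with L-2HG its call was lost without control replicates 1 or 3 or L-2HG replicate 1 (up to 0.0785). Prodh lost its call with D-2HG without D-2HG replicate 1 (0.0567) and with L-2HG without control replicate 3 or L-2HG replicate 1 (up to 0.0693). Sdhb lost it with D-2HG without control replicates 1 or 3 or D-2HG replicate 3 (up to 0.0721), and with L-2HG without control replicates 1 or 3 or L-2HG replicates 1 or 2 (up to 0.107). Etfb lost it without control replicates 1 or 3, L-2HG replicate 1 or any D-2HG replicate (up to 0.187), and Etfa without control replicates 1 or 3, D-2HG replicates 1 or 2 or L-2HG replicates 1 or 2 (up to 0.167). Over all 19 settings, those without a library included, Etfb was called with D-2HG in 8 and Etfa with L-2HG in 9.

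**Figure D5:**
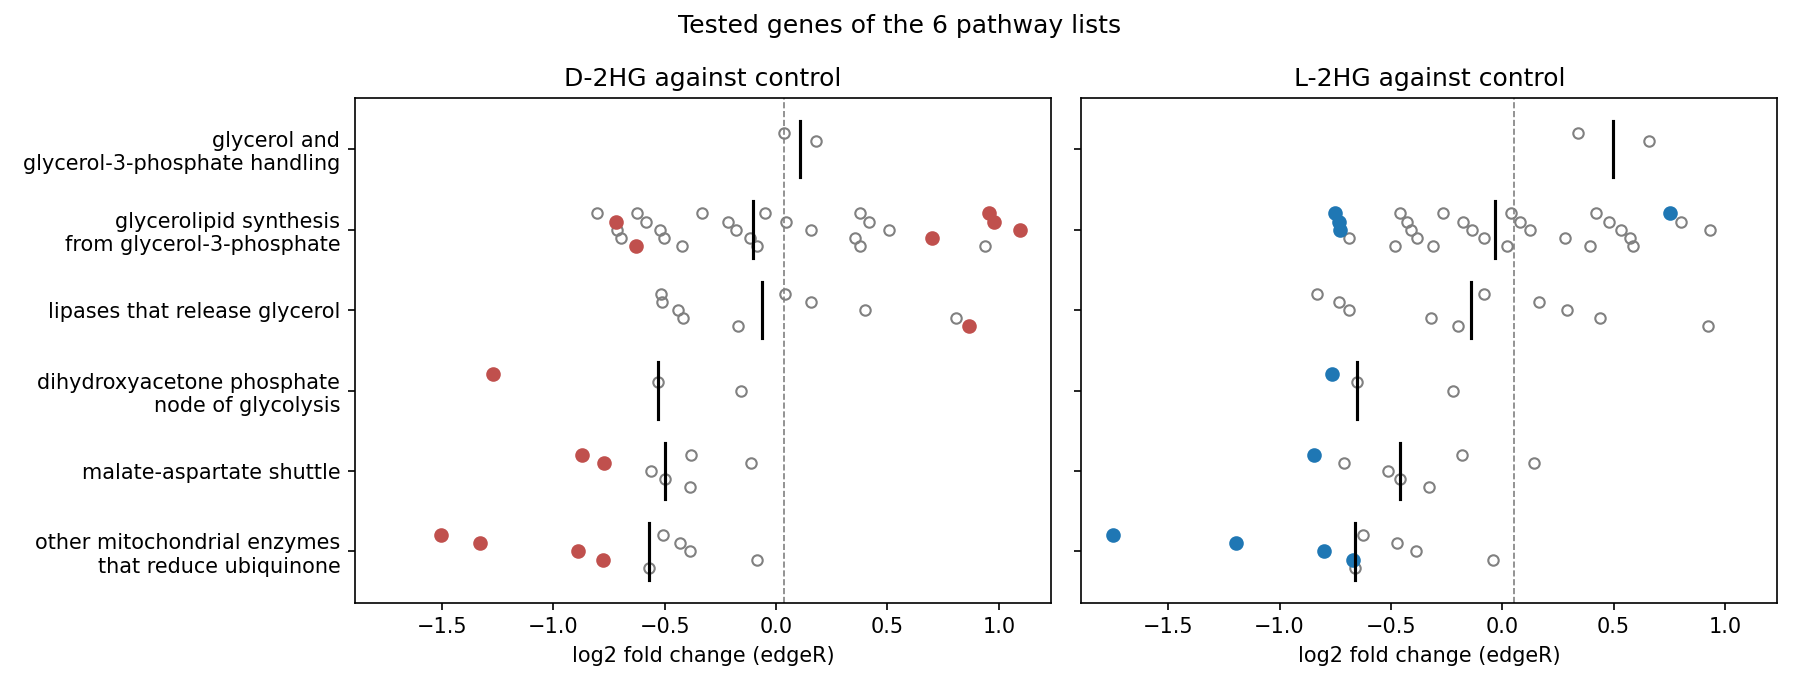
Log2 fold changes (x axis) of the 59 tested genes of 6 pathway lists (rows) with D-2HG and with L-2HG against control, each point being a gene, filled where the adjusted p is under 0.05, with a black bar at the median of the list and a dashed line at the median of all tested genes. The lists of the malate-aspartate shuttle and of enzymes that reduce ubiquinone lie mostly to the left, with medians of -0.50 and -0.57 with D-2HG.

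Within the 4 genes, the log2 CPM of Gk and Gpd1l went together over the 9 libraries (Pearson r = 0.82), and both went against Gpd2 (r = -0.83 and -0.95). The 9 libraries share the 3 groups and differ in depth and satellite share, so these correlations describe the libraries and carry no test. Of 8479 other genes with at least 5 CPM, those most like Gk were Sema4d, encoding a semaphorin (r = 0.99), Slc39a10, encoding a zinc importer (r = 0.98), and Txlng, encoding gamma-taxilin (r = 0.98). Sema4d stood at 69.1 ± 19.7, 260 ± 20.5 and 199 ± 56.7 CPM in the control, D-2HG and L-2HG groups, and Slc39a10 at 11.1 ± 3.38, 45.0 ± 6.29 and 30.4 ± 11.3 CPM. The genes most like Gpd1l were Dcun1d4 (r = 0.98), Sp4 (r = 0.97) and Elf4 (r = 0.97), of which the last 2 encode transcription factors. Those most like Gpd2 were Pmpcb, encoding a subunit of the mitochondrial processing peptidase (r = 0.96), Hnrnpm, encoding an RNA-binding protein (r = 0.96), and Ppil1, encoding a peptidyl-prolyl isomerase of the spliceosome (r = 0.96). Pmpcb stood at 176 ± 26.9, 111 ± 15.8 and 99.5 ± 20.1 CPM. Those most like Gk5 were Diaph2, Ehmt2 and Yy1 (r = 0.91, 0.91 and 0.90), with the low read counts of Gk5 behind these values.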

How the data were processed

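Polyadenylated RNA of 9 libraries was captured with an oligo(dT) primer, amplified by PCR and tagmented with Tn5, per the labels' protocols. The raw count table deposited by the authors gives whole numbers per gene symbol, made with STAR 2.7.3a and featureCounts on mm10, per the submitters' processing notes; their settings are not given in the sources used here. A second table deposited by the authors holds a normalized signal, the counts over 1 size factor per library (DESeq2, per its title). It served only to check gene identifiers. Positions, exon lengths and overlaps came from GENCODE M21.

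Counts were fitted in R 4.3.3 with edgeR 4.0.16 (filterByExpr with a minimum count of 10, TMM, robust quasi-likelihood, 1 mean per group over all 9 libraries), with Benjamini-Hochberg adjustment over 10235 genes and calls at adjusted p under 0.05. The fits were tested on simulated data. SEs and 95% intervals were derived from the log2 fold change and the F statistic of the same fit, and are approximate. Stray reads were estimated as reads per exon base over 1395 of 1469 receptor genes, without the 5% densest, times the exon length of a gene.

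The 4 genes and the pathway lists were chosen with earlier results of these data known. Named pathway genes were at most 5 called genes a list with the smallest adjusted p, plus Gpd1, Gk2, Pgp, Gpam and Tpi1. Aqp3, Aqp7, Aqp9, Gapdh, Gpat4 and the markers were named after their values were seen. Genes of like pattern were the 3 with the highest Pearson r of log2 CPM (prior count 2), without predicted genes. No 2 libraries of a group were alike within counting error (chi-square per degree of freedom 6.07 to 42.3). Alternatives used DESeq2 1.42.0 and limma 3.58.1 among others.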

Additional observations from a re-analysis of the deposited data

How the results depend on the processing

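The log2 fold changes of Gk, Gpd1l and Gpd2 against control kept their direction in each of 19 other settings, and those of Gk5 in the 17 that could be fitted. Gk ranged from 2.15 to 2.69 with D-2HG and from 1.26 to 1.89 with L-2HG, Gpd1l from 0.90 to 1.18 and from 0.77 to 1.20, and Gpd2 from -0.62 to -0.36 and from -0.74 to -0.35. Called genes numbered 2278 with D-2HG and 1812 with L-2HG over all genes, and 31 between the compounds. With 1 library left out these counts ranged from 384 to 4257, 65 to 4108 and 10 to 60, those of the 4 genes from 1 to 3, 0 to 3 and 0, and those of the pathway lists from 3 to 30, 0 to 22 and 0. Limma-voom with quality weights called 5617, 5180 and 177 genes, 4, 4 and 1 of the 4 genes, and 36 and 33 pathway genes against control. Without a count filter, 1341 genes, 1 of the 4 genes and 6 pathway genes were called with D-2HG, and 1 of the 4 genes with L-2HG, the call lost being that of Gpd1l each time. Without the 3 libraries of highest satellite share, chosen after seeing the data, 4493, 4379 and 165 genes were called, 27 pathway genes against control for each compound, and between the compounds 1 of the 4 genes (Gk) and 1 pathway gene (Tpi1). DESeq2's Wald test called 49 genes between the compounds and 17 pathway genes with L-2HG. With L-2HG, a mean count of at least 50 left 1195 genes and 6 pathway genes called, fitting only the groups compared 427 and 2, and subtracting stray reads 723 and 4, while library totals without TMM left 4 pathway genes. Without TMM the share of called genes that were higher went from 52.9 to 70.0% with D-2HG and from 53.1 to 77.7% with L-2HG. The cause of these shifts was not tested. Replicate numbers did not pair the libraries (r of deviations -0.17 to 0.28; the best match was the same number in 5 of 18 cases), and with the replicate number as a block 2314, 2284 and 35 genes, 2, 2 and 0 of the 4 genes and 15, 13 and 0 pathway genes were called. Gk5, with 2 to 24 reads per library, was limited by depth.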
